A study of Homo sapiens with 12 samples.

Results

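Kruppel-like factors were followed in PC9 and H1650 cells before and during inhibition of EGFR. The genes were KLF2, KLF3, KLF4, KLF5, KLF6, KLF9, KLF10, KLF11, KLF13 and KLF15, taken by their symbols from the deposited table of read counts. They are 10 of its 60591 genes, and all 10 passed the expression filter that left 19108 genes for testing. PC9 and H1650 are established lines of non-small cell lung cancer whose EGFR gene carries an activating deletion, and the labels give both as wild-type in genotype, that is, without a further engineered change. Each is 1 line, so a difference between them stands for these lines only. Polyadenylated RNA was sequenced from cells at T0 (0.1% DMSO, 0 h), after 36 h with 10 µM erlotinib, a reversible EGFR inhibitor, and after 36 h with 0.1 µM osimertinib, an irreversible one. Every combination of line and treatment (6 groups) had 2 libraries, which the study describes as biological replicates. Within a line, the T0 libraries served as reference for both drugs. No vehicle library of 36 h was analysed here, so drug and time in culture cannot be told apart in any change given against T0.

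Kruppel-like factors are transcription factors that bind GC boxes and CACCC boxes in promoters through zinc fingers at their C-terminal end. The family is usually divided by partner: one branch recruits the corepressor CtBP, another the corepressor SIN3A, and the remaining one acts mostly with acetyltransferases to activate genes. Members steer the choice between division and differentiation in epithelia, and several are early responders to growth factors, to TGFβ or to glucocorticoids. SP factors are the nearest relatives and recognise the same boxes.

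The libraries held between 17961765 and 26346187 counts, so that 3 counts, the limit that a count of 0 allows, were worth 0.116 to 0.168 normalized CPM (CPM, counts scaled to library size with TMM factors). These limits cover the error of counting alone, because without molecular identifiers a read need not be its own molecule. The 10 genes together took between 0.0339% and 0.0473% of the counts. Mitochondrial genes took 4.36% to 5.36% of the counts at T0 and 5.77% to 7.2% in the treated libraries. All 6 epithelial markers (EPCAM, CDH1, KRT7, KRT8, KRT18 and KRT19) were above 1 CPM in every group and summed to between 6162 and 13300 CPM. The 5 endothelial markers summed to between 0.193 and 5.87 CPM and the 5 leukocyte markers to between 0.509 and 4.15 CPM. The 5 fibroblast markers summed to between 16.9 and 45.8 CPM. In bulk RNA, fewer cells that express a gene and less RNA of it per cell cannot be told apart.

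Promoter sequences from RefSeq (GRCh38.p14) were matched for 8 of the 10 genes, all but KLF3 and KLF10. The stretches just before the transcription start of 4 genes are shown here because these genes carry the main patterns below: KLF9 rose with both drugs in both lines, KLF2 fell most in PC9, KLF4 moved in opposite directions with the drugs in H1650, and KLF13 differed most between the lines. Each is written 5′ to 3′ on the strand of its gene and ends at the base before the RefSeq start or, for KLF2, before the first exon in GENCODE. Capitals mark GC boxes (GGGCGG on either strand) and CACCC boxes (CACCC on either strand). The KLF4 stretch lies inside the gene as GENCODE 29 draws it, but in none of its exons, and the other 3 lie upstream of their genes.
KLF9, chr9:70414658-70414807, minus strand: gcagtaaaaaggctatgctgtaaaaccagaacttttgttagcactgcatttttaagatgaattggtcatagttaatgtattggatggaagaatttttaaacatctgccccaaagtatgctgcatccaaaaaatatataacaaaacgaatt
KLF2, chr19:16324676-16324816, plus strand: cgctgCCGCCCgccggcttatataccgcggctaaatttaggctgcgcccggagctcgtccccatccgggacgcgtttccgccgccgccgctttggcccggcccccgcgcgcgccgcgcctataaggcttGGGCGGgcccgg
KLF4, chr9:107489770-107489919, minus strand: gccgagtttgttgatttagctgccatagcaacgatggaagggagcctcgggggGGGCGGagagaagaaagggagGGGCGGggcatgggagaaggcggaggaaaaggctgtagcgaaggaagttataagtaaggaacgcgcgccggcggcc
KLF13, chr15:31326685-31326834, plus strand: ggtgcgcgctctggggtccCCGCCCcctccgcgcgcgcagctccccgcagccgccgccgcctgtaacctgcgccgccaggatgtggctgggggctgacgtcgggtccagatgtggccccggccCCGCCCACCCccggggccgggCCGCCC

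The KLF9 stretch holds neither box, the KLF2 stretch has 2 GC boxes, the KLF4 stretch has 2 GC boxes, and the KLF13 stretch has 3 GC boxes and 1 CACCC box, which overlaps one of them. The full 250 bases before the start held a GC box in 7 of the 8 genes matched and in 42.6% of 35116 RefSeq promoters. They held a CACCC box in 3 of the 8 (KLF5, KLF11 and KLF13) and in 54.7% of promoters. A gene was counted if any of its promoters matched, and KLF5 and KLF11 had more than a single promoter. The genes and the shares are thus not counted in the same unit. The 250 bases of KLF9 were 32.4% G or C and those of KLF2 80.0%, against a median of 58.0% over all promoters. A match gives the letters only and does not show that a factor binds there.

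On GRCh38, as GENCODE 29 places them, the activators KLF2, KLF4, KLF5 and KLF6 lie at chr19:16324817-16327874, chr9:107484852-107490482, chr13:73054976-73077542 and chr10:3775996-3785281. KLF3 lies at chr4:38664196-38701042. The SIN3A-binding KLF9, KLF10, KLF11 and KLF13 lie at chr9:70384597-70414624, chr8:102648779-102655902, chr2:10042849-10054836 and chr15:31326855-31435665, and KLF15 at chr3:126342635-126357442. Counts cover the exons of a gene as a whole, so none of the values below is tied to a single exon or transcript.

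The changes against T0 took no common direction over the 10 genes. In PC9, 6 members were higher and 3 lower after erlotinib (Benjamini-Hochberg adjusted p under 0.05, quasi-likelihood test of edgeR), where 61.8% of all tested genes passed, 32.7% higher and 29.1% lower. After osimertinib in PC9, 4 members were higher and 4 lower, where 61.4% of all genes passed, 32.7% higher and 28.7% lower. In H1650, 4 members were higher and 2 lower after erlotinib, where 36.5% of all genes passed, 18% higher and 18.5% lower. After osimertinib in H1650, 3 were higher and 4 lower, where 35.7% of all genes passed, 17.8% higher and 17.9% lower. The median size of the members' log2 fold change was 0.78 and 1.14 in PC9 for erlotinib and osimertinib, and 0.38 and 0.35 in H1650. Over all tested genes the median size was 0.69 and 0.71 in PC9 and 0.35 and 0.33 in H1650. KLF9 alone was higher with both drugs in both lines, as were 8.47% of all tested genes, and KLF10 alone was lower in all 4 comparisons, as were 9.16%, so that 1 member of 10 in each direction is close to the share over all genes. The other 8 members differed in call or in direction between lines or drugs, as the plots of levels by library and of changes against T0 show. Standard errors are those of the fitted log2 fold change, and fold changes and intervals come from the same fit.

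**Figure D1:**
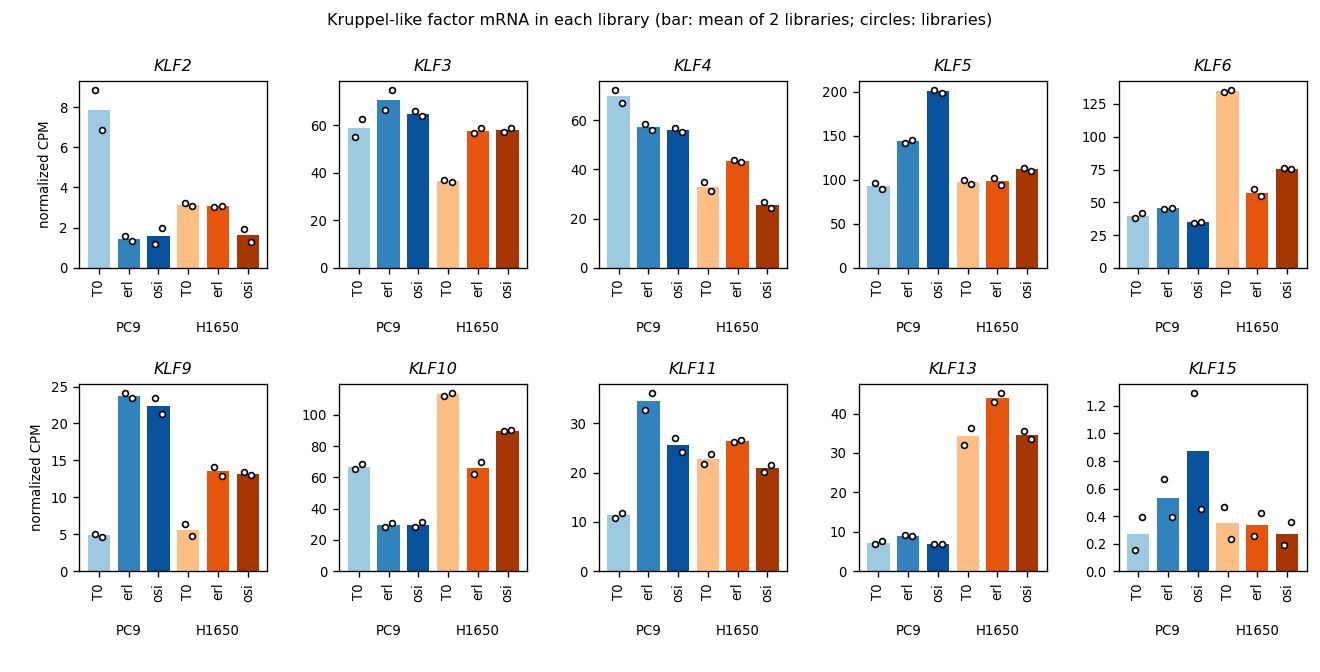
Normalized CPM of each Kruppel-like factor (vertical axes, each from 0) in PC9 and H1650 cells at T0 and after 36 h with erlotinib (erl) or osimertinib (osi). Bars are means of 2 libraries and circles the libraries: KLF9 is higher in all 8 treated libraries than in the T0 libraries of its line, KLF10 is lower in all 8, and KLF6 at 134 and 136 CPM stands highest in H1650 at T0.

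**Figure D2:**
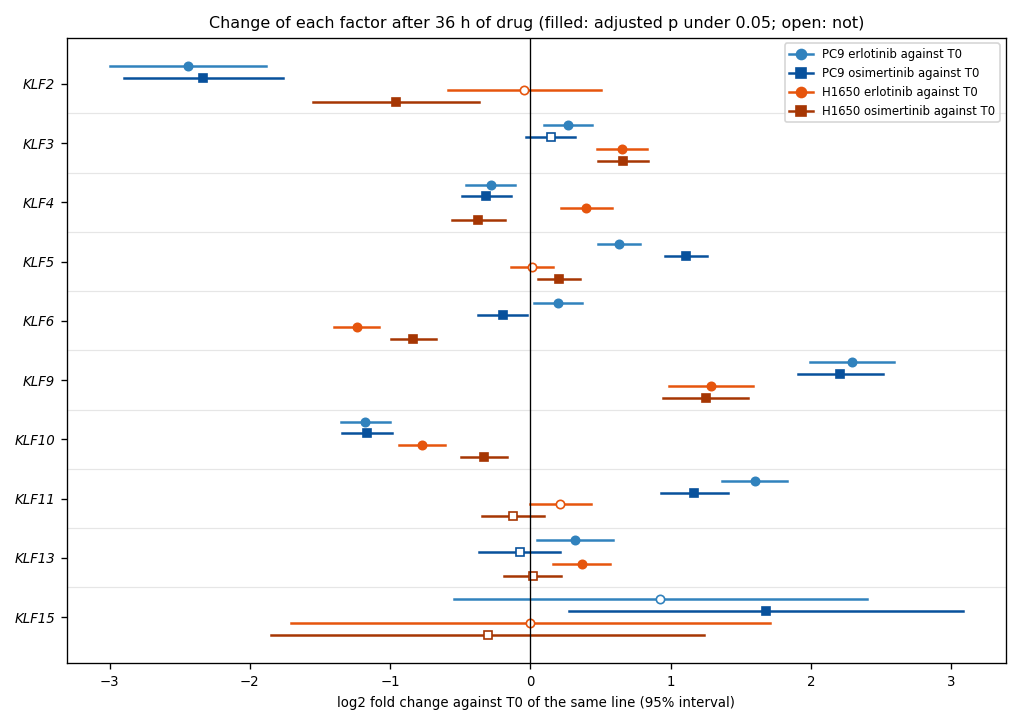
Log2 fold change against T0 of the same line (horizontal axis) for each gene, with its 95% interval; filled symbols passed the test at an adjusted p under 0.05. KLF2, KLF9 and KLF11 changed most in PC9 among genes over 1 CPM, KLF6 and KLF9 in H1650 with erlotinib, and the intervals of KLF15 are the widest.

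Among the members that act mostly as activators, KLF2 showed the deepest loss, and mostly in PC9. KLF2, first named lung Kruppel-like factor, is best known for holding T cells and endothelium in a quiescent state. Its libraries held 8.87 and 6.86 CPM in PC9 at T0, 1.57 and 1.33 CPM after erlotinib, and 1.20 and 1.96 CPM after osimertinib. In H1650 they held 3.22 and 3.09 CPM at T0, 3.04 and 3.07 CPM after erlotinib, and 1.96 and 1.29 CPM after osimertinib. Both T0 libraries of PC9 lay above all others, and the lowest were the 4 treated libraries of PC9 and the 2 of H1650 with osimertinib. In PC9 KLF2 was 5.43-fold lower after erlotinib (log2 -2.44 ± 0.271 SE, n = 2 and 2, edgeR adjusted p = 7.9e-09) and 5.03-fold lower after osimertinib (-2.33 ± 0.277, edgeR adjusted p = 2.6e-08). In H1650 the log2 change with erlotinib was -0.04, with a 95% interval from -0.59 to 0.50 (edgeR adjusted p = 0.938), while KLF2 was 1.94-fold lower with osimertinib (-0.96 ± 0.288, edgeR adjusted p = 0.00979). Without osimertinib replicate 2 of H1650 the latter was -0.68 with an edgeR adjusted p of 0.146. The gene was read at 26 to 176 counts per library. The 5 endothelial markers were PECAM1, CDH5, VWF, TIE1 and KDR. In PC9 they summed to 2.72 and 2.86 CPM at T0 and to between 3.51 and 5.87 CPM after the drugs. In H1650 they summed to between 0.193 and 1.78 CPM. They did not move one way in PC9. With erlotinib and osimertinib PECAM1 fell there (log2 -2.53 and -1.975), and CDH5 (1.88 and 2.21) and VWF (2.41 and 3.42) rose. TIE1 and KDR were too low to be tested. The part of these markers in the KLF2 values was not tested.

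The change of KLF2 against T0 differed between the lines. The change in H1650 minus that in PC9 was 2.40 ± 0.383 on the log2 scale for erlotinib (edgeR adjusted p = 8.5e-06) and 1.37 ± 0.408 for osimertinib (edgeR adjusted p = 0.00752). Without osimertinib replicate 1 of PC9 the osimertinib difference was 1.04 (edgeR adjusted p = 0.063), and without osimertinib replicate 1 of H1650 it was 1.07 (edgeR adjusted p = 0.0788). PC9 held 2.49-fold more KLF2 than H1650 at T0 (edgeR adjusted p = 2.9e-05). After erlotinib the order was turned, with H1650 2.12-fold higher (edgeR adjusted p = 0.00185).

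KLF4, a factor of the epidermal barrier and of differentiated epithelium and one of the reprogramming factors, went down with osimertinib in H1650 and up with erlotinib. H1650 libraries held 34.8 and 31.1 CPM at T0, 43.7 and 43.1 CPM after erlotinib, and 26.8 and 24.1 CPM after osimertinib. The 3 groups did not overlap. The log2 fold change was 0.40 ± 0.0892 with erlotinib (edgeR adjusted p = 0.000757) and -0.37 ± 0.0923 with osimertinib (edgeR adjusted p = 0.00215), and osimertinib lay 1.70-fold below erlotinib (edgeR adjusted p = 9.1e-07). The decrease with osimertinib was -0.29 without T0 replicate 1 of H1650 (edgeR adjusted p = 0.0575) and -0.29 without its osimertinib replicate 2 (edgeR adjusted p = 0.0611). In PC9 KLF4 was lower after both drugs. It went from 72.4 and 67.0 CPM at T0 to 58.6 and 56.0 CPM with erlotinib and 56.7 and 55.4 CPM with osimertinib. These were log2 changes of -0.28 ± 0.0845 (edgeR adjusted p = 0.00484) and -0.31 ± 0.0853 (edgeR adjusted p = 0.00220), and the PC9 groups treated with the 2 drugs overlapped. Without T0 replicate 1 of PC9 the erlotinib change was -0.23 (edgeR adjusted p = 0.0732). The lines differed in their change with erlotinib by 0.68 ± 0.123 (edgeR adjusted p = 4.6e-05). For osimertinib the difference was -0.06 with an interval from -0.31 to 0.20 (edgeR adjusted p = 0.780).

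KLF5, which promotes proliferation in basal and crypt epithelium and is needed in the developing lung, was the most abundant member per length in PC9 and rose there. PC9 libraries held 96.2 and 90.1 CPM at T0, 142 and 146 CPM after erlotinib, and 203 and 199 CPM after osimertinib. KLF5 thus rose 1.55-fold with erlotinib (log2 0.63 ± 0.0730, edgeR adjusted p = 1.8e-08) and 2.16-fold with osimertinib (1.11 ± 0.0732, edgeR adjusted p = 1.7e-13), and the osimertinib libraries lay 1.39-fold above the erlotinib libraries (edgeR adjusted p = 1.4e-05). H1650 libraries, which started at 99.6 and 95.5 CPM, held 102 and 94.7 CPM after erlotinib and 114 and 110 CPM after osimertinib. At T0 the lines overlapped in KLF5. The H1650 change was 0.01 with erlotinib (interval from -0.14 to 0.16, edgeR adjusted p = 0.943) and 0.20 ± 0.0729 with osimertinib (edgeR adjusted p = 0.0325), a call that was lost without any 1 of the 4 H1650 libraries compared (edgeR adjusted p from 0.0698 to 0.205) and with RLE normalization (edgeR adjusted p = 0.0532). The lines differed by -0.62 ± 0.103 for erlotinib (edgeR adjusted p = 1.7e-05) and by -0.91 ± 0.103 for osimertinib (edgeR adjusted p = 2.9e-08).

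KLF6, a broadly expressed factor linked to growth arrest and wound repair, was high in H1650 at T0 and fell there with both drugs. The H1650 libraries held 134 and 136 CPM at T0, 59.8 and 54.6 CPM after erlotinib, and 76.2 and 75.2 CPM after osimertinib. The fall was 2.36-fold with erlotinib (log2 -1.24 ± 0.0783, edgeR adjusted p = 8.3e-13) and 1.78-fold with osimertinib (-0.83 ± 0.0768, edgeR adjusted p = 1.4e-09), and osimertinib left 1.32-fold more than erlotinib (edgeR adjusted p = 0.000918). PC9 libraries held 37.9 and 41.5 CPM at T0, 45.1 and 45.8 CPM after erlotinib, and 34.2 and 35.1 CPM after osimertinib. These small changes against T0, 0.19 ± 0.0825 (edgeR adjusted p = 0.0426) and -0.20 ± 0.0851 (edgeR adjusted p = 0.0467), were lost with DESeq2 (adjusted p = 0.123 and 0.0646) and without any 1 of several libraries, among them T0 replicate 1 for erlotinib (0.12, edgeR adjusted p = 0.346) and T0 replicate 2 for osimertinib (-0.13, edgeR adjusted p = 0.326). The difference between the 2 drugs in PC9, -0.39 ± 0.0836, held in all alternatives (edgeR adjusted p = 0.00119). The lines differed by -1.43 ± 0.114 for erlotinib (edgeR adjusted p = 2.9e-11) and by -0.64 ± 0.115 for osimertinib (edgeR adjusted p = 4.1e-05). At T0, H1650 held 3.40-fold more KLF6 than PC9 (edgeR adjusted p = 3.8e-17), and after erlotinib 1.26-fold more (edgeR adjusted p = 0.000654).

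KLF3 was the only member of the CtBP-binding branch followed here, a repressor known from erythroid, B and fat cells, and it rose mainly in H1650. H1650 libraries held 37.1 and 36.3 CPM at T0, 56.7 and 58.8 CPM after erlotinib, and 57.0 and 59.1 CPM after osimertinib. The rise was 1.57-fold with erlotinib (log2 0.65 ± 0.0874, edgeR adjusted p = 8.7e-07) and 1.58-fold with osimertinib (0.66 ± 0.0872, edgeR adjusted p = 7.0e-07), and the drugs overlapped. PC9 libraries held 55.0 and 62.6 CPM at T0, 66.4 and 75.1 CPM after erlotinib, and 66.2 and 63.8 CPM after osimertinib. In PC9 the change was 0.27 ± 0.0844 with erlotinib (edgeR adjusted p = 0.00758) and 0.14 ± 0.0854 with osimertinib (edgeR adjusted p = 0.148). The first was 0.17 without T0 replicate 1 of PC9 (edgeR adjusted p = 0.183) and 0.17 without erlotinib replicate 2 (edgeR adjusted p = 0.152), and the second passed with upper quartile normalization (0.22, edgeR adjusted p = 0.0253). The lines differed by 0.39 ± 0.121 for erlotinib (edgeR adjusted p = 0.0116) and by 0.52 ± 0.122 for osimertinib (edgeR adjusted p = 0.000986), the former not without T0 replicate 2 (0.29, edgeR adjusted p = 0.107) or erlotinib replicate 1 of PC9 (0.30, edgeR adjusted p = 0.0732). Exons of KLF3 and of its antisense gene KLF3-AS1, which had 7 to 81 counts, share 266 bases in GENCODE 29, and without knowing the strand setting of the counting reads of the pair cannot be told apart there.

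Of the 4 members that bind SIN3A, KLF9 rose in every comparison with T0. KLF9 is induced by glucocorticoids and thyroid hormone and restrains division in several epithelia. PC9 libraries held 5.04 and 4.64 CPM at T0, 24.1 and 23.4 CPM after erlotinib, and 23.4 and 21.3 CPM after osimertinib. H1650 libraries held 6.39 and 4.78 CPM at T0, 14.1 and 12.9 CPM after erlotinib, and 13.4 and 12.96 CPM after osimertinib. At T0 the lines overlapped, and in each line the libraries of the 2 drugs overlapped. KLF9 rose 4.91-fold with erlotinib (log2 2.30 ± 0.146, edgeR adjusted p = 8.4e-14) and 4.62-fold with osimertinib (2.21 ± 0.148, edgeR adjusted p = 2.2e-13) in PC9. In H1650 it rose 2.44-fold with erlotinib (1.29 ± 0.147, edgeR adjusted p = 6.3e-08) and 2.38-fold with osimertinib (1.25 ± 0.146, edgeR adjusted p = 1.0e-07). The rise in H1650 was smaller by 1.01 ± 0.210 on the log2 scale for erlotinib (H1650 minus PC9 -1.01, edgeR adjusted p = 0.000277) and by 0.96 ± 0.211 for osimertinib (-0.96, edgeR adjusted p = 0.000484). The log2 difference of osimertinib from erlotinib was -0.09 in PC9 (interval from -0.34 to 0.17, edgeR adjusted p = 0.726) and -0.04 in H1650 (interval from -0.31 to 0.24, edgeR adjusted p = 0.928).

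KLF10, an early response gene of TGFβ once named TIEG, fell in every comparison with T0. PC9 libraries held 65.1 and 68.5 CPM at T0, 28.4 and 30.6 CPM after erlotinib, and 28.2 and 31.3 CPM after osimertinib. H1650 libraries held 112 and 114 CPM at T0, 62.4 and 70.0 CPM after erlotinib, and 89.7 and 90.2 CPM after osimertinib. The fall in PC9 was 2.26-fold with erlotinib (log2 -1.18 ± 0.0858, edgeR adjusted p = 1.6e-12) and 2.25-fold with osimertinib (-1.17 ± 0.0871, edgeR adjusted p = 2.4e-12). In H1650 it was 1.71-fold with erlotinib (-0.77 ± 0.0804, edgeR adjusted p = 1.2e-08) and 1.26-fold with osimertinib (-0.33 ± 0.0791, edgeR adjusted p = 0.00140). The drugs differed in H1650, where osimertinib left 1.36-fold more KLF10 (edgeR adjusted p = 0.000452), while in PC9 their difference was 0.01 with an interval from -0.18 to 0.19 (edgeR adjusted p = 0.988). The lines differed by 0.40 ± 0.117 for erlotinib (edgeR adjusted p = 0.00667) and by 0.84 ± 0.117 for osimertinib (edgeR adjusted p = 1.1e-06).

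KLF11, the TGFβ-responsive factor next of kin to KLF10, rose in PC9 alone of the 2 lines by the test. PC9 libraries held 10.8 and 11.9 CPM at T0, 32.7 and 36.2 CPM after erlotinib, and 26.9 and 24.2 CPM after osimertinib. The H1650 libraries held 21.8 and 23.7 CPM at T0, 26.3 and 26.6 CPM after erlotinib, and 20.2 and 21.6 CPM after osimertinib. At T0 PC9 thus held the lowest amount of all 6 groups, 2.00-fold less than H1650 (edgeR adjusted p = 1.1e-08). It rose 3.03-fold with erlotinib (log2 1.60 ± 0.112, edgeR adjusted p = 6.8e-13) and 2.25-fold with osimertinib (1.17 ± 0.115, edgeR adjusted p = 7.4e-10) in PC9. In H1650 the changes were 0.21 ± 0.105 (edgeR adjusted p = 0.118) and -0.12 ± 0.107 (edgeR adjusted p = 0.401). The lines differed by -1.38 ± 0.154 for erlotinib (edgeR adjusted p = 2.2e-08) and by -1.29 ± 0.157 for osimertinib (edgeR adjusted p = 9.6e-08). Osimertinib lay below erlotinib in PC9 by -0.43 ± 0.103 (edgeR adjusted p = 0.00370) and in H1650 by -0.34 ± 0.107 (edgeR adjusted p = 0.0454), the latter not with DESeq2 (adjusted p = 0.0932) or RLE normalization (edgeR adjusted p = 0.0532). Without erlotinib replicate 2 of PC9 the difference there was -0.35 (edgeR adjusted p = 0.0649), and without osimertinib replicate 2 it was -0.36 (edgeR adjusted p = 0.0739). An antisense gene, AC104794.4, overlaps KLF11 and had 0 counts in every library.

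KLF13, known as a late activator of CCL5 in T cells, marked the line more than the drug. PC9 libraries held 6.81 and 7.65 CPM at T0, 9.18 and 8.86 CPM after erlotinib, and 6.94 and 6.78 CPM after osimertinib. H1650 libraries held 32.1 and 36.3 CPM at T0, 42.9 and 45.3 CPM after erlotinib, and 35.7 and 33.6 CPM after osimertinib. H1650 held 4.73-fold more at T0 (log2 2.24 ± 0.118, edgeR adjusted p = 9.9e-16), 4.89-fold more after erlotinib and 5.04-fold more after osimertinib. In H1650 it was 1.29-fold higher with erlotinib (0.36 ± 0.0992, edgeR adjusted p = 0.00451), a call lost without T0 replicate 1 (0.28, edgeR adjusted p = 0.104) or erlotinib replicate 2 (0.32, edgeR adjusted p = 0.0587) of that line. The PC9 change of 0.32 with erlotinib (edgeR adjusted p = 0.0386) did not pass with DESeq2 (adjusted p = 0.122), nor without T0 replicate 1 of PC9 (0.23, edgeR adjusted p = 0.256). With osimertinib the changes were -0.07 in PC9 (interval from -0.36 to 0.21) and 0.02 in H1650 (interval from -0.19 to 0.22). The changes of the lines against T0 were not told apart for either drug. Their differences were 0.05 (interval from -0.29 to 0.39) and 0.09 (interval from -0.26 to 0.45).

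KLF15, a glucocorticoid-induced regulator of amino acid and lipid metabolism in liver and muscle, was near the limit of detection. It had 3 to 28 counts per library, and only 1 library, osimertinib replicate 1 of PC9 with 1.29 CPM, exceeded 1 CPM. Its PC9 libraries held 0.151 and 0.395 CPM at T0, 0.672 and 0.390 CPM after erlotinib, and 1.29 and 0.448 CPM after osimertinib. The osimertinib change in PC9 was 1.68 ± 0.684 (edgeR adjusted p = 0.0352), fell to 0.70 without that 1 library (edgeR adjusted p = 0.569) and was not called by DESeq2 (adjusted p = 0.142). Without T0 replicate 1 of PC9 it was 1.15 (edgeR adjusted p = 0.257). In H1650 the libraries held between 0.191 and 0.466 CPM, and the groups overlapped. Changes of KLF15 could not be resolved at these counts.

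**Figure D3:**
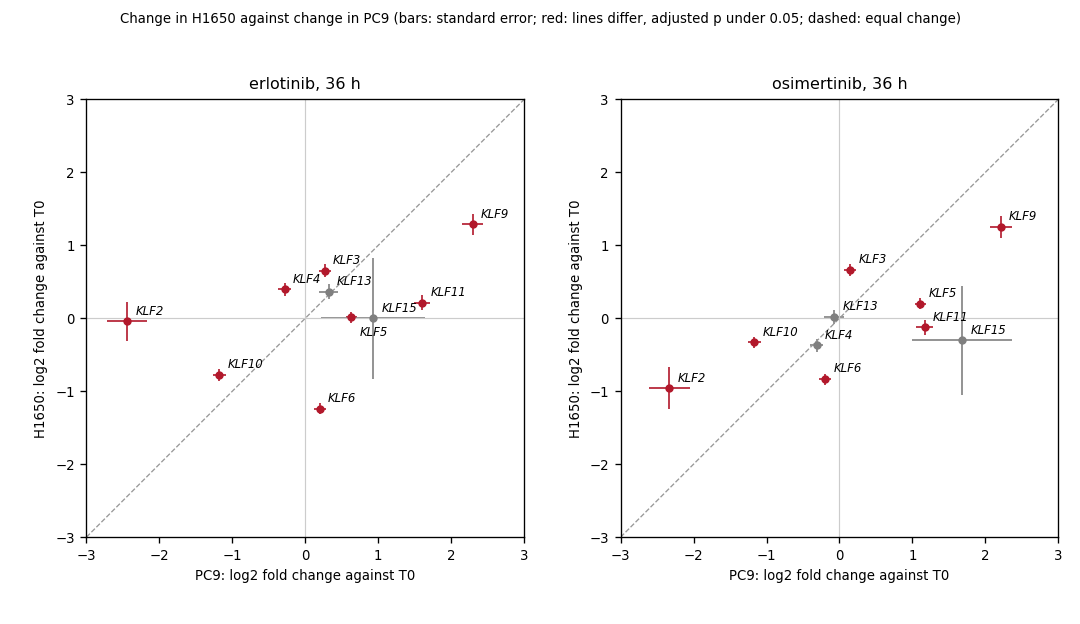
Log2 fold change against T0 in H1650 (vertical axis) against that in PC9 (horizontal axis) for erlotinib and osimertinib, with standard errors; the dashed line marks equal change. Red genes differ between the lines at an adjusted p under 0.05, 8 for erlotinib and 7 for osimertinib; KLF6 lies far below the line with erlotinib, at 0.19 in PC9 and -1.24 in H1650, and KLF2 far left, at -2.44 and -0.04.

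The lines differed in their change against T0 for most of the factors, and the plot of H1650 against PC9 changes shows in which way. For erlotinib 4 members had a higher and 4 a lower log2 change in H1650 than in PC9, where 40.8% of all tested genes differed, 21.1% higher and 19.8% lower. For osimertinib 3 were higher and 4 lower, where 41.9% of all genes differed, 21.5% higher and 20.5% lower. KLF2 and KLF10 fell less in H1650, KLF2 with erlotinib not by the test, and KLF5, KLF9 and KLF11 rose less or not by the test. KLF3 and KLF6 moved farther in H1650, KLF3 up and KLF6 down, and KLF4 differed with erlotinib only by the test. The changes of the 2 drugs share the T0 libraries of a line and are not independent of each other.

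The drugs were also compared with each other, at doses of 10 µM and 0.1 µM that are not matched. In PC9, 1 member (KLF5) was higher and 3 (KLF6, KLF11 and KLF13) were lower with osimertinib than with erlotinib, where 16.6% of all genes differed, 10.1% higher and 6.41% lower. In H1650, 2 members (KLF6 and KLF10) were higher and 4 (KLF2, KLF4, KLF11 and KLF13) lower, where 8.75% of all genes differed, 5.02% higher and 3.73% lower. KLF6 thus lay lower with osimertinib in PC9 and higher in H1650. KLF13 was lower with osimertinib by 0.39 ± 0.134 in PC9 (edgeR adjusted p = 0.0421) and by 0.35 ± 0.0996 in H1650 (log2 -0.35, edgeR adjusted p = 0.0248), and KLF2 in H1650 by 0.92 ± 0.293 (log2 -0.92, edgeR adjusted p = 0.0491). The KLF13 call in PC9 was lost with DESeq2 (adjusted p = 0.0954) and without any 1 of the 4 treated PC9 libraries (-0.42 to -0.37, edgeR adjusted p from 0.0983 to 0.167). DESeq2 called 3 members in H1650, KLF4, KLF6 and KLF10. Leaving out any 1 of the 4 treated H1650 libraries also left 3, and leaving out erlotinib replicate 2 or osimertinib replicate 2 of PC9 left 2 there.

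At T0, H1650 held more KLF6, KLF10, KLF11 and KLF13 and less KLF2, KLF3 and KLF4 than PC9. These were 4 members higher and 3 lower, a share close to that of all genes, since 69.6% of all genes differed between the lines, 35.8% higher and 33.8% lower. KLF3 was 1.60-fold, KLF4 2.12-fold and KLF2 2.49-fold lower in H1650. After erlotinib H1650 was higher for 4 members and lower for 5, where 72.1% of all genes differed, 36.7% higher and 35.4% lower. After osimertinib it was higher for 3 and lower for 5, where 71.6% differed, 36.6% higher and 35% lower. The 5 include KLF15, at -1.67 (edgeR adjusted p = 0.0286), which was -0.69 without osimertinib replicate 1 of PC9 (edgeR adjusted p = 0.532) and not called by DESeq2 (adjusted p = 0.118), and KLF11, at -0.29 and -0.21 without that library (edgeR adjusted p = 0.173). The count of 8 called was 6 without it and also 6 without osimertinib replicate 1 of H1650. The members whose sign of difference at T0 was turned after erlotinib, with a call both times, were KLF2 and KLF11, the latter being 2.00-fold higher in H1650 at T0 and 1.30-fold lower after erlotinib (edgeR adjusted p = 0.00165).

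**Figure D4:**
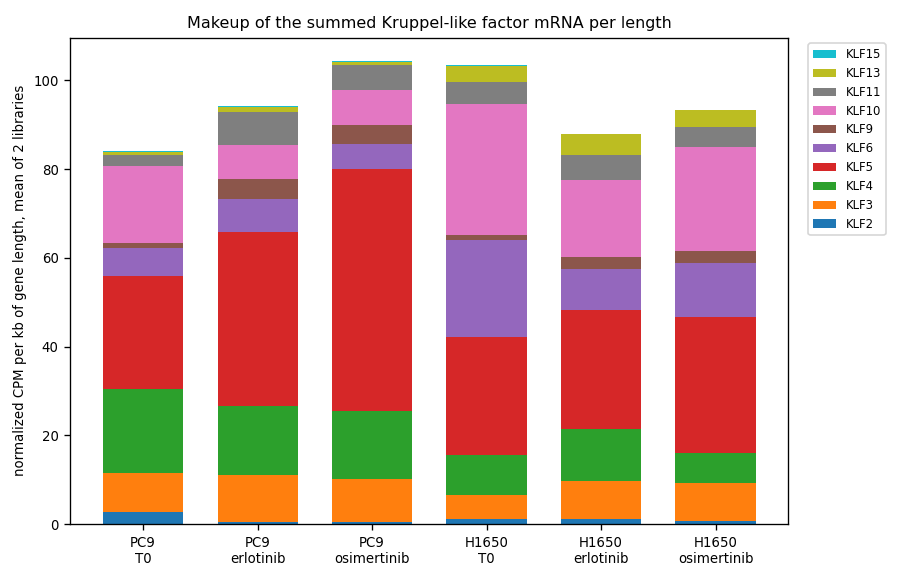
Mean normalized CPM per kb of gene length (vertical axis, from 0), stacked by gene, for the 6 groups of 2 libraries. KLF5 (red) takes 30.1% of the stack in PC9 at T0 and 52.3% after osimertinib, while KLF10 (pink) and KLF6 (purple) take 28.7% and 21.2% in H1650 at T0.

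Levels of different genes were compared per length, as normalized CPM per kb of the gene length given in the counts table. KLF5 led in 5 of the 6 groups, with 25.3 CPM per kb in PC9 at T0, 39.1 after erlotinib and 54.6 after osimertinib. The exception was H1650 at T0, where KLF10 stood at 29.6 and KLF5 at 26.5 CPM per kb. KLF4, at 19.0 CPM per kb, and KLF10, at 17.5, followed KLF5 in PC9 at T0, and KLF15 was last in all 6 groups. The sum over the 10 genes was 84.5 and 83.6 CPM per kb in PC9 at T0 and rose to 92.8 and 95.4 after erlotinib and to 105 and 104 after osimertinib, all above T0. In H1650 the sum went the other way, from 104 and 103 at T0 to 88.2 and 87.7 after erlotinib and 94.1 and 92.5 after osimertinib. No test was made of the sums, which were formed after the values of the genes were known. The stacked plot of levels per length shows that KLF5 took 30.1% of the sum in PC9 at T0, 41.6% after erlotinib and 52.3% after osimertinib, and in H1650 25.6%, 30.4% and 32.6%.

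**Figure D5:**
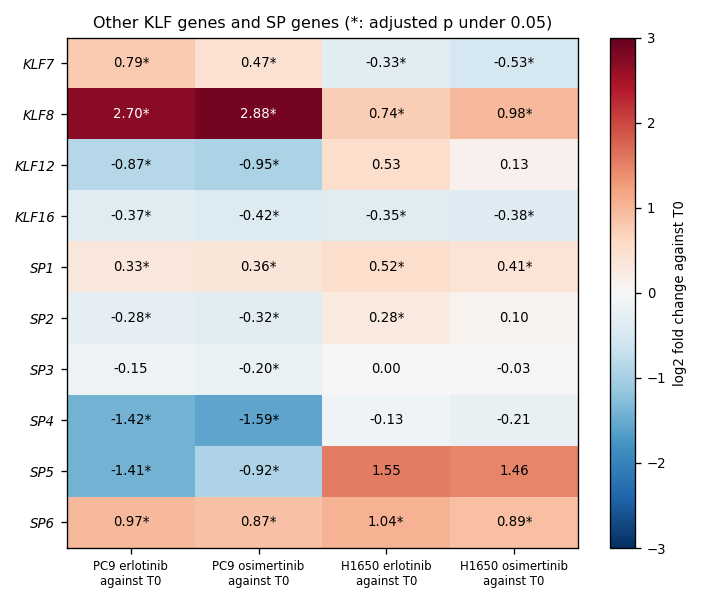
Log2 fold change against T0 (colour and number) of the other KLF genes and the SP genes with a mean of at least 2 normalized CPM, in the 4 drug comparisons; an asterisk marks an adjusted p under 0.05. KLF8 is the darkest, at 2.70 and 2.88 in PC9, and SP6 and SP1 are red in every column; SP5 in H1650 lay below 0.4 CPM in every library.

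The other KLF and SP genes were read from the same fit, and the map of their changes shows KLF8 standing out in PC9. Of the 8 other KLF genes 6 were tested, and KLF1 and KLF18 were too low. In PC9, 2 were higher and 4 lower with erlotinib, and 2 higher and 2 lower with osimertinib. In H1650, 1 was higher and 3 were lower with each drug. Over all tested genes 61.8% with erlotinib and 61.4% with osimertinib were called in PC9, and 36.5% and 35.7% in H1650. KLF14 and KLF17, which are among the genes lower in one comparison or another, had group means at or below 3.59 CPM. In PC9 their calls with erlotinib rest on counts near the limit of detection. KLF14 held 2 and 2 counts there at T0 and 0 and 0 after erlotinib. KLF17 held 5 and 0 counts at T0 and 0 and 0 after erlotinib, so that its libraries overlapped.

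KLF8, of the CtBP-binding branch and linked to invasion, went from 52.7 ± 0.788 CPM (SD, n = 2) at T0 to 342 ± 7.38 after erlotinib and 387 ± 37.4 after osimertinib in PC9, log2 changes of 2.70 and 2.88. In H1650 it went from 39.2 ± 3.95 to 65.5 ± 0.394 and 77.3 ± 10.8 CPM, log2 changes of 0.74 and 0.98. KLF7, of the activator branch and known from neurons, rose in PC9 (0.79 and 0.47) and fell in H1650 (-0.33 and -0.53), and the lines differed by -1.12 and -0.99. KLF12, a relative of KLF3 and KLF8, fell in PC9 by 0.87 and 0.95 and was at 0.53 and 0.13 in H1650, not called. With erlotinib in H1650 it passed with at least 10 counts in every library (0.55, edgeR adjusted p = 0.0446). It also passed there with the replicate block (0.54, edgeR adjusted p = 0.0347). The lines differed in KLF12 by 1.40 for erlotinib (edgeR adjusted p = 0.000107) and by 1.08 for osimertinib (edgeR adjusted p = 0.00241). KLF16, of the SIN3A-binding branch, was lower in all 4 comparisons, by 0.35 to 0.42 (log2 -0.37, -0.42, -0.35 and -0.38). With erlotinib in H1650 the call of KLF16 was lost without T0 replicate 1 (-0.32, edgeR adjusted p = 0.0606) or erlotinib replicate 2 (-0.31, edgeR adjusted p = 0.0746) of that line, and that of KLF7 without T0 replicate 2 (-0.23, edgeR adjusted p = 0.176) or erlotinib replicate 1 (-0.28, edgeR adjusted p = 0.106).

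Of the 9 SP genes 7 were tested, and SP7 and SP8 were too low. In PC9, 2 were higher and 3 lower with erlotinib and 2 higher and 4 lower with osimertinib. For H1650 the counts were 3 higher with erlotinib and 2 with osimertinib, with 0 lower. The same test called 61.8% of all genes with erlotinib in PC9 and 61.4% with osimertinib. H1650 had lower shares over all genes as well, at 36.5% and 35.7%. SP6, which acts in tooth and skin epithelium, rose in all 4 comparisons, by 0.97 and 0.87 in PC9 and 1.04 and 0.89 in H1650. SP1, the ubiquitous factor of GC boxes, rose in all 4 by 0.33 to 0.52. SP4 fell in PC9, from 14.3 ± 1.66 CPM to 5.33 ± 0.250 and 4.75 ± 0.573, and its log2 changes in H1650 were -0.13 and -0.21, not called. SP3 lay between -0.20 and 0.00 and was called lower with osimertinib in PC9, a call lost without T0 replicate 2 of PC9 (-0.14, edgeR adjusted p = 0.222) or either osimertinib replicate (-0.20, edgeR adjusted p = 0.0638 and 0.0658). With erlotinib in PC9 it was at -0.15, not called, but passed with DESeq2 (-0.17, adjusted p = 0.0410), and the difference between the drugs was not called.

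All 10 corepressor and coactivator genes listed for the family were tested. In PC9, 3 were higher and 5 lower with erlotinib and 3 higher and 4 lower with osimertinib. In H1650, 1 was higher and 3 lower with erlotinib and 2 higher and 3 lower with osimertinib. Among all genes, 61.8% and 61.4% were called in PC9 and 36.5% and 35.7% in H1650. SIN3A, the scaffold bound by KLF9, KLF10, KLF11 and KLF13, was higher in all 4 comparisons, by 0.24 to 0.31. SIN3B, its paralog, was higher by 0.31 with each drug in PC9 and by 0.22 with osimertinib in H1650, and was at 0.16 with erlotinib there, not called; its PC9 calls were lost without replicate 1 of the drug (0.21 and 0.16, edgeR adjusted p = 0.0832 and 0.179), and its H1650 call most clearly without T0 replicate 2 (0.18, edgeR adjusted p = 0.227). CTBP1, the partner of KLF3 and KLF8, was lower by 0.40 and 0.58 in PC9 (log2 -0.40 and -0.58), and in H1650 it was at -0.12, not called, and -0.23. HDAC1, the deacetylase of both complexes, was at -0.79 and -0.62 in PC9 and at -0.22 and -0.09 in H1650, the last not called. Each of the SIN3A calls was lost without 1 library or another, in PC9 without T0 replicate 1 (0.24 with erlotinib and 0.20 with osimertinib, edgeR adjusted p = 0.0591 and 0.118) or replicate 2 of the drug (0.19 and 0.17, edgeR adjusted p = 0.106 and 0.174), and in H1650 without replicate 2 of the drug (0.20 and 0.25, edgeR adjusted p = 0.156 and 0.0788). The CTBP1 call in H1650 was lost without T0 replicate 1 (-0.14, edgeR adjusted p = 0.336) or either osimertinib replicate (-0.21 and -0.24, edgeR adjusted p = 0.141 and 0.0922), and the HDAC1 call there without any 1 of T0 replicate 1, T0 replicate 2 and erlotinib replicate 1 (-0.22, -0.22 and -0.15, edgeR adjusted p from 0.0745 to 0.246).

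The 17 genes that act upstream of the family were also all tested. In PC9, 8 were higher and 3 lower with erlotinib and 10 higher and 2 lower with osimertinib. In H1650, 5 were higher and 1 lower with erlotinib and 5 higher and 2 lower with osimertinib. Calls were made for 61.8% and 61.4% of all genes in PC9, and for 36.5% and 35.7% in H1650. MEF2A, of the MEF2 factors that activate KLF2 and KLF4 downstream of ERK5, was higher in all 4 comparisons (0.83 and 0.89 in PC9, 0.52 and 0.45 in H1650). FOXO3, which is held in the cytoplasm by AKT, was also higher in all 4 (0.58, 0.81, 0.37 and 0.52). TGFB1, the ligand that induces KLF10 and KLF11, was lower with erlotinib in both lines (-0.30 and -0.38) and at -0.15 and 0.07 with osimertinib, not called. With osimertinib in PC9 TGFB1 passed without a filter (-0.24, edgeR adjusted p = 0.0109). It also passed there with each line fitted on its own (-0.21, edgeR adjusted p = 0.0367) and with the replicate block (-0.15, edgeR adjusted p = 0.0423). The erlotinib call of TGFB1 in PC9 was lost with upper quartile normalization (-0.21, edgeR adjusted p = 0.0821). The ubiquitin ligase gene ITCH was lower in PC9 (-0.51 and -0.60) and, with osimertinib, in H1650 (-0.32). NR3C1, the glucocorticoid receptor, was at 0.22 with erlotinib in PC9 and between -0.04 and 0.16 and not called in the rest, although with osimertinib in PC9 it passed with upper quartile normalization (0.23, edgeR adjusted p = 0.00853). The NR3C1 call was lost without any 1 of T0 replicate 1, T0 replicate 2 and erlotinib replicate 2 of PC9 (0.14 to 0.21, edgeR adjusted p from 0.0763 to 0.209), and the TGFB1 calls without T0 replicate 1 (-0.28 in PC9 and -0.26 in H1650, edgeR adjusted p = 0.0571 and 0.0882) or erlotinib replicate 2 (-0.14 and -0.26, edgeR adjusted p = 0.260 and 0.0872) of the line. The FOXO3 call with erlotinib in H1650 was lost without T0 replicate 2 (0.27, edgeR adjusted p = 0.0708) or erlotinib replicate 2 (0.24, edgeR adjusted p = 0.106).

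Because KLF9 and KLF15 are known glucocorticoid targets, 5 other genes of that response were listed, of which 4 were tested and ZBTB16 was too low. In PC9, 3 were higher and 1 lower with each drug. In H1650, 1 was higher and 2 lower with erlotinib and 2 higher and 2 lower with osimertinib. Among all tested genes 61.8% and 61.4% were called in PC9, and 36.5% and 35.7% in H1650. TSC22D3 (GILZ) rose in all 4, from 4.22 ± 0.451 CPM to 68.6 ± 1.93 and 42.4 ± 1.27 in PC9, log2 changes of 4.02 and 3.33, and by 1.13 and 0.90 in H1650. FKBP5, the chaperone of the receptor, fell in all 4 (-3.68 and -3.93 in PC9, -0.73 and -0.85 in H1650). PER1, of the circadian clock, rose in PC9 by 1.54 and 1.74. In H1650 PER1 was at 0.13 with erlotinib, not called, and higher by 0.50 with osimertinib (edgeR adjusted p = 0.000421). DUSP1, a MAP kinase phosphatase, rose in PC9 by 1.79 and 2.98 and was at -0.81 and -0.44 in H1650. The genes of this list did not move one way. The part of this response in the KLF9 and KLF15 values was not tested.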

How the data were processed

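Reads went through the DolphinNext pipeline, in which the authors counted them per gene with featureCounts, and the counts were deposited without normalization. The labels name GRCh38 and DESeq2. The annotation and strand setting are not given in the sources used here. The table holds 60591 genes by symbol and 12 libraries.

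The analysis used edgeR 4.0.16 in R 4.3.3. filterByExpr kept 19108 genes. TMM factors ran from 0.941 to 1.08. A quasi-likelihood model with 6 group terms was fitted to all 12 libraries (6 residual and 20.7 prior degrees of freedom, biological coefficient of variation 0.0656), and p-values were adjusted by Benjamini-Hochberg over all tested genes and called under 0.05 in 11 contrasts. A fit on simulated counts with known changes was checked first. Alternatives were DESeq2 1.42.0, other normalizations, filters, a stricter threshold, each line on its own, the replicate number as a block, and leaving out each library.

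The members, gene lists and tests were chosen with earlier results of these data known. All 10 members were named; from each other list the 2 highest and 2 lowest mean changes over the 4 drug comparisons were named among genes of at least 2 CPM with a call, plus NR3C1, CDKN1A, CCND1 and SP1. The lists hold other KLF genes, SP genes, cofactors, upstream genes, reported targets, glucocorticoid genes and cell type markers. Gene positions are of GENCODE 29, promoters of RefSeq. Replicates within each group differed by more than counting noise. The p-values rest on the spread between the 2 libraries of a group, pooled over all 6 groups and drawn towards that of other genes.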

Additional observations from a re-analysis of the deposited data

Results flagged for a closer look

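For 8 members the change with erlotinib, and for 7 the change with osimertinib, differed between the lines by a test of the difference itself (the change in H1650 minus that in PC9, log2, quasi-likelihood test of edgeR, Benjamini-Hochberg adjusted over all genes). For erlotinib the differences were 2.40 for KLF2 (edgeR adjusted p = 8.5e-06), 0.39 for KLF3 (edgeR adjusted p = 0.0116), 0.68 for KLF4 (edgeR adjusted p = 4.6e-05) and 0.40 for KLF10 (edgeR adjusted p = 0.00667). They were -0.62 for KLF5 (edgeR adjusted p = 1.7e-05), -1.43 for KLF6 (edgeR adjusted p = 2.9e-11), -1.01 for KLF9 (edgeR adjusted p = 0.000277) and -1.38 for KLF11 (edgeR adjusted p = 2.2e-08). For osimertinib they were 1.37 for KLF2 (edgeR adjusted p = 0.00752), 0.52 for KLF3 (edgeR adjusted p = 0.000986) and 0.84 for KLF10 (edgeR adjusted p = 1.1e-06). They were -0.91 for KLF5 (edgeR adjusted p = 2.9e-08), -0.64 for KLF6 (edgeR adjusted p = 4.1e-05), -0.96 for KLF9 (edgeR adjusted p = 0.000484) and -1.29 for KLF11 (edgeR adjusted p = 9.6e-08). Of all tested genes, 40.8% and 41.9% differed between the lines by the same test.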

How the results depend on the processing

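Of 814 log2 fold changes of members under other settings, 756 kept their direction and side of the threshold, 42 lost their call, 6 gained one and 10 turned sign, none of them called. Of 1320 with 1 library left out, 1215 were kept, 75 lost and 30 turned. The count of members called for osimertinib against erlotinib in H1650 went from 6 to 3 with DESeq2 and to 3 at an adjusted p under 0.01, which left out KLF2, KLF11 and KLF13. With 1 library left out it ranged from 3 to 6. The count ranged from 5 to 9 for erlotinib in PC9 (5 without T0 replicate 1 of PC9, which lost KLF3, KLF4, KLF6 and KLF13), from 4 to 7 for osimertinib in H1650 (4 without osimertinib replicate 2 of H1650, which lost KLF2, KLF4 and KLF5) and from 2 to 4 for osimertinib against erlotinib in PC9. Of 79 calls of members over the 11 contrasts, 59 were kept under all settings.

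Changes near 0 turned sign in some settings. KLF5 with erlotinib in H1650 was -0.0126 with DESeq2, -0.0108 with RLE normalization and -0.0126 without a filter. SP3 in the same comparison was -0.0193, -0.0177 and -0.0196. KLF15 there was 0.00735 with upper quartile normalization and 0.0215 with the replicate block. KLF10 between the drugs in PC9 was -0.00989 with upper quartile normalization, -0.0151 without a filter and -0.0108 with each line fitted on its own. The drug-by-line difference of KLF13 for erlotinib was -0.0352 with upper quartile normalization, and that of KLF4 for osimertinib 0.0197 without a filter.
With 1 library left out, values that turned sign ranged as follows. For PC9 osimertinib against erlotinib, KLF10 went from -0.0678 to 0.086, KLF15 from -0.228 to 1.29, KLF2 from -0.262 to 0.444 and KLF4 from -0.0637 to 0.000762. For H1650 osimertinib against T0, KLF12 went from -0.118 to 0.333, KLF13 from -0.0684 to 0.109, KLF15 from -0.822 to 0.246 and TGFB1 from -0.0508 to 0.195. For PC9 osimertinib against T0, KLF13 went from -0.162 to 0.0091. For erlotinib by line, KLF13 went from -0.0391 to 0.142. For H1650 erlotinib against T0, KLF15 went from -0.446 to 0.545, KLF5 from -0.0386 to 0.0559, PER1 from -0.0354 to 0.283, SP3 from -0.0788 to 0.0782 and SP4 from -0.283 to 0.0113. For H1650 osimertinib against erlotinib, KLF15 went from -0.816 to 0.101, KLF3 from -0.0193 to 0.0436 and KLF9 from -0.0924 to 0.0246. For T0 H1650 against PC9, KLF15 went from -0.256 to 1.15 and KLF9 from -0.0355 to 0.400. For osimertinib H1650 against PC9, KLF2 went from -0.279 to 0.427. For osimertinib by line, KLF4 went from -0.133 to 0.0396.

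The main fit did not pair libraries by replicate number. Deviations of same-numbered libraries correlated over 0.1 in 0 of 15 pairs of groups (range -0.0671 to 0.0947) and over 0 in 11. Fitting the number as a block raised the calls over all genes from 1672 to 2670 for osimertinib against erlotinib in H1650. A weaker effect shared by libraries of the same number was not tested. With the number as a block, KLF5 was called for osimertinib against erlotinib in H1650 (0.19, edgeR adjusted p = 0.0288) and KLF3 for H1650 against PC9 after osimertinib (-0.17, edgeR adjusted p = 0.0256), and no call of a member was lost. Upper quartile normalization moved the median of all genes by at most 0.0907. Requiring 10 counts in each of the libraries left out KLF15. The cause of these changes was not tested. KLF15 had 3 to 28 counts per library and KLF2 26 to 176. With 2 libraries a group, the spread rests on all 6 groups.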

Other observations

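Genes reported as targets of the family were read from the same fit, and all 16 were tested. In PC9, 5 were higher and 9 lower with erlotinib and 6 higher and 9 lower with osimertinib. In H1650, 3 were higher and 6 lower with each drug. Of all tested genes, 61.8% with erlotinib (32.7% higher, 29.1% lower) and 61.4% with osimertinib (32.7% higher, 28.7% lower) were called in PC9. The shares in H1650 were 36.5% (18% higher, 18.5% lower) and 35.7% (17.8% higher, 17.9% lower). NOS3, which KLF2 is known to activate in endothelium, rose from 0.250 ± 0.0743 CPM (SD, n = 2) in PC9 to 6.62 ± 0.140 with erlotinib and 10.9 ± 1.35 with osimertinib, while KLF2 fell there. In H1650 NOS3 went from 0.500 ± 0.216 CPM to 1.51 ± 0.490 and 1.39 ± 0.133, and the osimertinib call was lost without T0 replicate 2 of H1650 (log2 1.08, edgeR adjusted p = 0.0764). LGALS3 rose in PC9 by 1.57 and 1.79 on the log2 scale and was at 0.05 and 0.08 in H1650, not called. BIRC5, the survivin gene, was lower in all 4 comparisons (-3.11 and -2.97 in PC9, -0.67 and -0.73 in H1650), and so was ODC1, the first enzyme of polyamine synthesis (-2.81, -3.18, -0.47 and -0.77). CCND1, a cyclin under KLF5 in some epithelia, fell in PC9 by 2.02 and 1.88, and in H1650 it was at -0.07, not called, and -0.48. CDKN1A, which KLF4 and KLF6 are known to activate, was lower in PC9 (-1.33 and -0.48) and with erlotinib in H1650 (-0.52), and at -0.16 with osimertinib there, not called.

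The genes most like a member in pattern were found by the root mean square difference of log2 CPM over the 6 group means, each gene centred on its own mean, among about 10293 genes of at least 10 CPM. For KLF9 they were ALPK1 (0.0871), TRAPPC6A (0.104) and ORAI3 (0.140), and for KLF10 NUDT1 (0.0705), COLGALT1 (0.105) and FAM207A (0.112). For KLF2 the nearest, NDC1 (0.212), ECT2 (0.247) and BORA (0.247), lay farther away. KLF5 was nearest to UBE2H (0.0654), KLF6 to DSG2 (0.153), KLF4 to ENOX2 (0.119), KLF3 to PRTG (0.0624) and KLF13 to WDR91 (0.159). With 6 points a gene, no test was made of the likeness.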
